A study of Sus scrofa with 4 samples.

Results

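The enzymes described here make fat-soluble molecules easier to excrete, and also make or break down steroids, bile acids and vitamin D. They comprised every cytochrome P450, UDP-glucuronosyltransferase (UGT), sulfotransferase (SULT) and glutathione transferase (GST) gene that could be named on a pig array, chosen by the start of the symbol (CYP, UGT, SULT or GST followed by a digit, or by a capital letter and a digit). The rule used no measured value to choose genes, and found 30 genes among 2389 named genes, read by 72 of 43603 probes. Of these 30 genes, 25 were cytochrome P450 genes, 3 were sulfotransferase genes and 2 were glutathione transferase genes. No UGT gene was named, and the family is not analysed here.

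RNA came from slices of ileum (the end section of the small bowel) of suckling piglets aged 16 days with Yorkshire × Landrace dams and Duroc sires. The low-gain group had 2 arrays (a and b), each labelled as a pool of 2 piglets with low weight gain, and the high-gain group had 2 arrays (a and b), each labelled as a pool of 3 piglets with high weight gain. The sample labels speak of weight gain and the series' design text of weight at birth, and the sample labels are followed here. All piglets were fed by sows, and every RNA sample was labelled with Cy3 and hybridised alone. It is not stated whether a and b came from different pools, so p-values reflect only array-to-array spread, which could be purely technical.

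Cytochrome P450 enzymes are haem proteins that insert oxygen into a substrate, with electrons passed on from a reductase. Conjugating enzymes then attach a polar group, such as sulfate or glutathione, to the product. In the small intestine these enzymes lie mainly in the enterocytes that line the villi, where they meet food compounds, bile acids and hormones first.

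None of the enzyme genes passed the test between low and high gain. The largest differences were those of the estrogen sulfotransferase gene *SULT1E1*, 1.72-fold higher in low gain, the phenol sulfotransferase gene *SULT1A3*, with a log2 difference of -0.59, the oxysterol hydroxylase gene *CYP39A1*, 1.41-fold higher on its brighter probe, and the sterol demethylase gene *CYP51*, 1.40-fold higher. On the brightest probe of each gene, the drug-metabolising P450 genes of families 1 to 3 lay between -0.22 and 0.40 on the log2 scale. Dimmer probes of some of them differed by more, such as -0.92 for *CYP2C49*. A probe of *CYP1A1* that was not well above background in low gain gave -1.37. The 2 glutathione transferase genes lay at 0.06 and 0.16.

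A probe was tested if the scanner software marked it as well above background on both low-gain or both high-gain arrays. In this count each gene stands for its tested probe with the highest mean signal. For every tested enzyme gene this was also the brightest of all its probes. Genes without a tested probe were left out. That left 25 tested genes, of which 23 lay above background on all 4 arrays. By limma with Benjamini-Hochberg adjustment over 33265 probes, 0 of 25 passed at 0.05 (lowest adjusted p = 0.161), beside 9 of 2158 tested genes on the array (0.417%) and 80 of the probes (0.24%). At an unadjusted limma p under 0.05 there were 4 of 25 (16.0%), beside 21.6% of all tested genes. The groups did not overlap for 12 of the 25, beside 61.8% of all tested genes. Of these 12, 8 were higher in low gain (32.6% of all tested genes were) and 4 were lower (29.2%). A difference of at least 0.5 was found for 2 of the 25, beside 15.8% of all tested genes. Among the 23 genes above background on all arrays, 13 had a higher and 10 a lower mean in low gain, with a median difference of 0.06. Of all 2099 such genes on the array, 1124 had a higher and 975 a lower mean, with a median of 0.025. The smallest exact two-sided permutation p for 2 arrays against 2 is 0.333, so the tests of single genes rest on the limma fit, which shares its estimate of the spread across probes.

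Another prior for the variance changed the calls. When limma's prior variance followed the mean signal, 3 of the 25 genes passed, *SULT1E1*, *SULT1A3* and *CYP51*, beside 7.88% of all tested genes. *SULT1E1* and *CYP51* were higher in low gain (5.19% of all tested genes passed in that direction) and *SULT1A3* was lower (2.69%). Low-gain array a had the most flagged spots. Without it, the difference was 0.755 for *SULT1E1*, -0.55 for *SULT1A3* and 0.51 for *CYP51*. That fit held only 3 arrays, so whether the 3 calls rest on array a cannot be told from it. The same 3 genes passed with normexp background correction after bright local backgrounds were replaced, beside 6.86% of all tested genes.

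**Figure D1:**
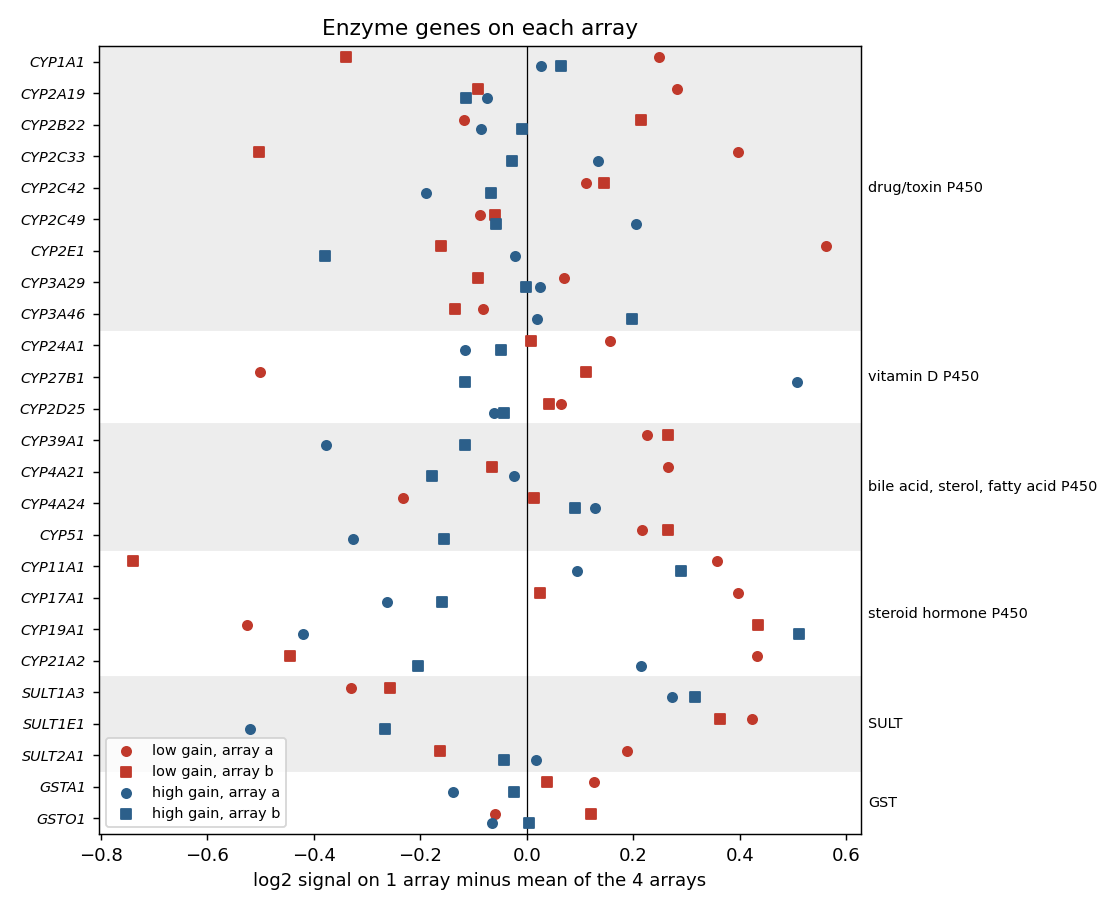
Log2 signal of the 25 tested enzyme genes on each of the 4 arrays, as the deviation from the gene's mean over the arrays (x axis, log2), with low gain in red, high gain in blue, circles for arrays a and squares for arrays b. The arrays of a group lie close together and apart from the other group for *SULT1A3*, *SULT1E1* and *CYP51*, while for *CYP19A1* arrays a lie below arrays b in both groups.

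Sulfotransferases transfer sulfate from an activated donor to hydroxyl groups. *SULT1E1*, which inactivates estrogens, had normalised log2 signals (log2 signal minus the array's 75th percentile) of 2.91 and 2.85 in low gain (a, then b, here and throughout) and of 1.97 and 2.22 in high gain. Both low-gain arrays lay above both high-gain arrays. The log2 difference was 0.79 ± 0.13 (SE, n = 2 arrays per group), with a 95% interval of 0.42 to 1.15 and a limma adjusted p = 0.161. With the prior variance following the signal, its limma adjusted p was 0.0179. *SULT1E1* was read by 1 probe, so no other probe bears on it.

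*SULT1A3*, which acts on small phenols and catecholamines, was lower in low gain. Its signals were 4.63 and 4.70 on the low-gain arrays and 5.23 and 5.27 on the high-gain arrays, with no overlap. The difference was -0.59 ± 0.10 (95% interval -0.87 to -0.31, limma adjusted p = 0.161), and the adjusted p was 0.0144 with the prior variance following the signal. The other probe of *SULT1A3* read 4.27 and 4.31 in low gain and 4.81 and 4.87 in high gain, a difference of -0.55 ± 0.10. The pair of probes thus gave nearly the same difference. Sulfotransferases of the phenol subfamily are close in sequence, and a probe may read more than 1 of them.

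*SULT2A1*, which conjugates hydroxysteroids and bile acids, differed by 0.03 ± 0.16 (95% interval -0.41 to 0.46). Its low-gain signals were -5.57 and -5.92 and its high-gain signals -5.74 and -5.80. The ranges overlapped, and its other probe was not well above background on any array.

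**Figure D2:**
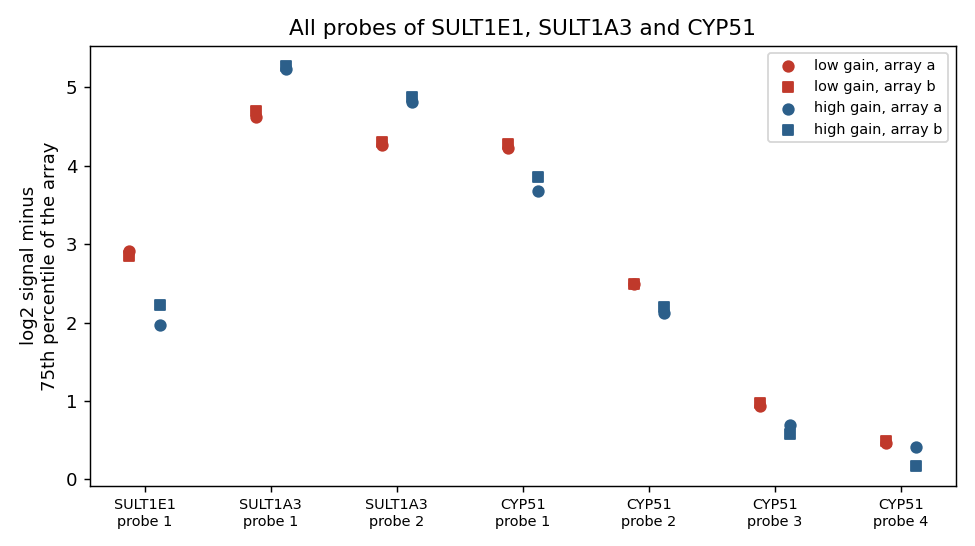
Normalised log2 signal (y axis, log2 signal minus the 75th percentile of the array) on each of the 4 arrays for every probe of *SULT1E1*, *SULT1A3* and *CYP51*, with low gain in red and high gain in blue. Low gain lies above high gain for the probe of *SULT1E1* and all 4 probes of *CYP51*, and below it for both probes of *SULT1A3*; heights of different probes are not comparable.

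Among the P450 genes of sterol, bile acid and fatty acid metabolism, *CYP51*, the lanosterol demethylase of cholesterol synthesis, had the most probes in 1 direction. Its brightest probe read 4.23 and 4.27 on low-gain arrays and 3.68 and 3.85 on high-gain arrays. The difference was 0.48 ± 0.12 (95% interval 0.16 to 0.80, limma adjusted p = 0.197), and the adjusted p was 0.0359 with the prior variance following the signal. The other 3 probes of *CYP51* differed by 0.34 ± 0.10, 0.32 ± 0.11 and 0.18 ± 0.13. On each of the 4 probes both low-gain arrays lay above both high-gain arrays, although the probe with 0.18 had high-gain signals of 0.41 and 0.17 beside low-gain signals of 0.46 and 0.49. The mean over the 4 probes gave 0.33 for *CYP51*.

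*CYP39A1*, an oxysterol hydroxylase of bile acid synthesis, was 1.41-fold higher in low gain on its brighter probe. Its signals were -2.23 and -2.19 in low gain and -2.83 and -2.57 in high gain, a difference of 0.49 ± 0.13 (limma adjusted p = 0.212). The other probe of *CYP39A1* differed by -0.06 ± 0.16, with overlapping groups, so the probes of this gene did not show the same difference.

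The bile acid genes of the liver were at or near background. *CYP7A1*, the rate-limiting enzyme of classical bile acid synthesis, was not well above background on any array. *CYP8B1*, the sterol 12-hydroxylase of the same pathway, cleared the background mark on 1 of the 4 arrays, a low-gain one, and was therefore not tested. Its signals were -5.94 and -5.43 in low gain and -7.23 and -7.95 in high gain. No fold is given for *CYP8B1*, since only 1 array measured it well above background.

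*CYP4A21* and *CYP4A24* lie near each other in the Sscrofa11.1 gene table, with 2 protein-coding genes between them. *CYP4A21*, which makes the pig bile acid hyocholic acid, read 0.23 and -0.10 in low gain and -0.06 and -0.22 in high gain, a difference of 0.20 ± 0.16 with overlapping groups. *CYP4A24*, a fatty acid hydroxylase, read 0.10 and 0.34 in low gain and 0.46 and 0.42 in high gain, a difference of -0.22 ± 0.13 without overlap. Neither passed (limma adjusted p = 0.536 for *CYP4A21* and 0.434 for *CYP4A24*), and the difference between these paralogues was not tested. The other tested probe of *CYP4A21* gave 0.28 ± 0.30 and that of *CYP4A24* gave -0.74 ± 0.30.

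**Figure D3:**
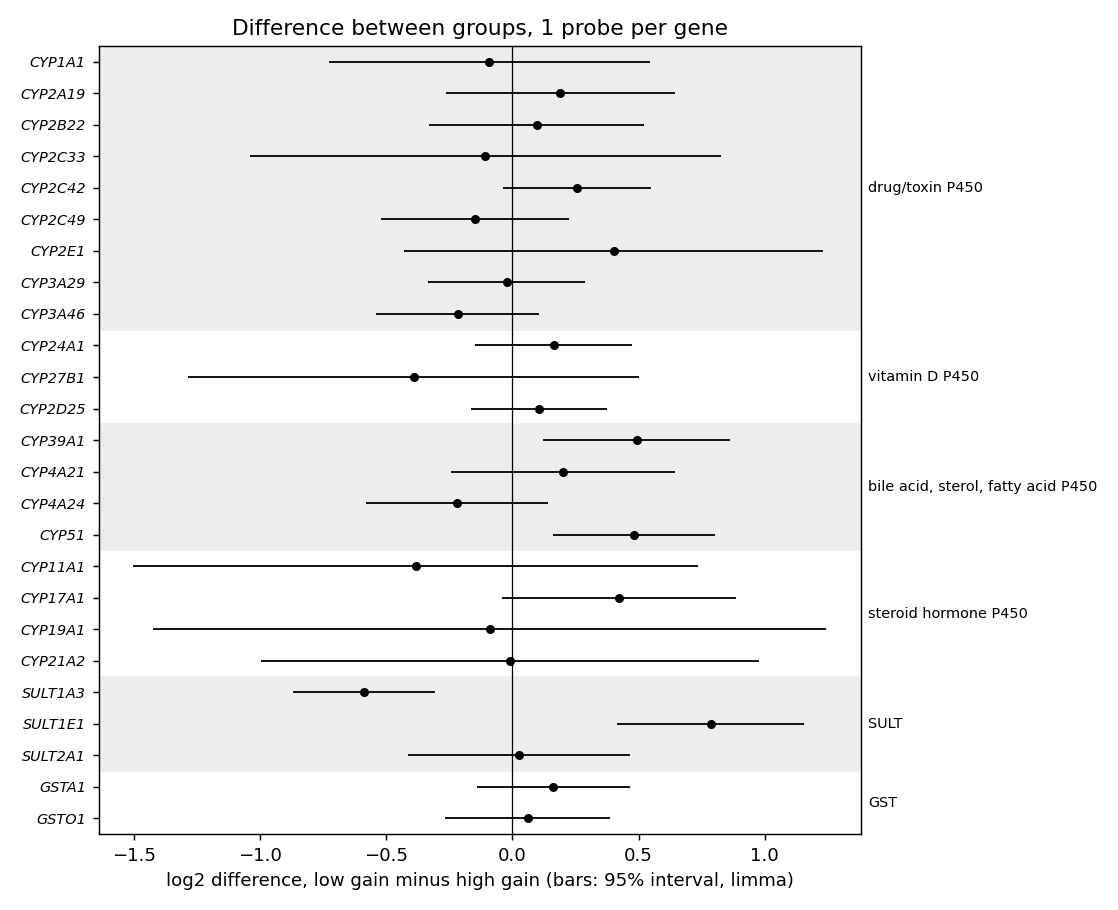
Log2 difference, low gain minus high gain, for the 25 tested enzyme genes (x axis) with its 95% interval from the limma fit (bars), ordered by role. The interval lies on 1 side of 0 for *SULT1E1*, *SULT1A3*, *CYP51* and *CYP39A1*, none of which passed after adjustment, and is widest for *CYP19A1*.

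Of the 10 drug and toxin P450 genes, 9 were tested and 0 passed, with 4 higher and 5 lower means in low gain. CYP3A enzymes oxidise a large share of drugs in the human and pig intestine. *CYP3A29* read 0.82 and 0.66 in low gain and 0.77 and 0.75 in high gain, a difference of -0.02 ± 0.11, with a 95% interval of -0.33 to 0.29. Its other 2 probes differed by 0.08 and 0.07.

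*CYP3A46*, next to *CYP3A29* in the gene table, had signals of 2.92 and 2.87 in low gain and 3.02 and 3.20 in high gain, a difference of -0.22 ± 0.12 (limma adjusted p = 0.397). Its other 3 probes gave -0.34 ± 0.10, 0.06 ± 0.10 and -0.51 ± 0.13. Means were thus lower in low gain on 3 probes and higher on 1. CYP3A genes are near-identical over long stretches, and which of them a probe reads is uncertain.

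*CYP2C42* and *CYP2C49*, separated by 1 protein-coding gene, belong to a subfamily that oxidises drugs and fatty acids. *CYP2C42* read -0.15 and -0.11 in low gain and -0.45 and -0.33 in high gain, a difference of 0.26 ± 0.11 (limma adjusted p = 0.311). For *CYP2C49* the brightest probe read -2.15 and -2.12 in low gain and -1.86 and -2.12 in high gain, a difference of -0.15 ± 0.13. The groups did not overlap, but low-gain array b and high-gain array b differed by less than the last digit. Its dimmer probes gave -0.67 ± 0.21 and -0.92 ± 0.18. The last of these read -4.59 and -4.80 in low gain and -3.60 and -3.96 in high gain, and did not pass either (limma adjusted p = 0.174). All 3 probes of *CYP2C49* were lower in low gain, but their differences spanned a range of 0.77 on the log2 scale.

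*CYP2C33* differed by -0.11 ± 0.34 on the 1 of its 6 probes that was tested. One of its other probes read -4.29 on low-gain array a and -8.70, -8.59 and -8.66 on low-gain array b and high-gain arrays a and b, so that it was bright on a single array.

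The remaining drug P450 genes had small or poorly measured differences. *CYP2A19*, a coumarin hydroxylase, differed by 0.19 ± 0.16, and its other 3 tested probes by 0.02 to 0.30. *CYP2B22* differed by 0.10 ± 0.15 on its brighter probe and by -0.73 ± 0.10 on the other (limma adjusted p = 0.136), which read -6.19 and -6.14 in low gain and -5.41 and -5.47 in high gain and cleared the background mark on only 1 low-gain array. *CYP1A1*, which is induced through the aryl hydrocarbon receptor, differed by -0.09 ± 0.23. Its other probe read -7.22 and -6.53 in low gain, where it was not well above background, and -4.73 and -6.28 in high gain. The difference of -1.37 ± 0.60 did not pass (limma adjusted p = 0.327). No fold is given for that probe, since its low-gain signals were not well above background and its high-gain arrays lay far apart. The neighbour of *CYP1A1*, *CYP1A2*, was not well above background on any array. *CYP2E1*, which oxidises ethanol, differed by 0.40 ± 0.30 and was well above background on 1 of 2 high-gain arrays. Its difference was 0.04 without low-gain array a and 0.76 without low-gain array b.

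Vitamin D is activated by hydroxylation in liver and kidney and is broken down by *CYP24A1* in its target tissues, the gut among them. *CYP24A1* read 10.30 and 10.15 in low gain and 10.03 and 10.10 in high gain, a difference of 0.16 ± 0.11 (95% interval -0.15 to 0.47) without overlap. Its other probe read far lower, at -0.32 and -1.21 in low gain and -0.67 and -0.96 in high gain, and differed by 0.05 ± 0.34. Signals of different probes are not comparable, so these values do not give the level of *CYP24A1* in the ileum. *CYP2D25*, a pig enzyme that 25-hydroxylates vitamin D, differed by 0.10 ± 0.10, with signals of 0.77 and 0.75 in low gain and 0.65 and 0.66 in high gain. Its other 2 probes gave 0.05 and -0.33. *CYP27B1*, the activating 1-hydroxylase, lay close to background, at -6.27 and -5.66 in low gain and -5.26 and -5.89 in high gain, and its groups overlapped (-0.39 ± 0.32).

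The P450 genes of steroid hormone synthesis work mainly in adrenal gland, gonads and placenta. *CYP11A1*, which cleaves the cholesterol side chain, read -2.78 and -3.87 in low gain and -3.04 and -2.85 in high gain, a difference of -0.38 ± 0.40 with overlap. Its other tested probe read -4.81 and -2.70 in low gain and -2.72 and -2.75 in high gain, so that only low-gain array a lay apart, and the difference was -1.02 ± 0.75. *CYP17A1*, needed for androgens and cortisol, differed by 0.42 ± 0.17 (limma adjusted p = 0.296), with signals of -3.50 and -3.87 in low gain and -4.16 and -4.06 in high gain. *CYP21A2*, the adrenal 21-hydroxylase, differed by -0.01 ± 0.36 with overlapping groups.

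*CYP19A1*, the gene of aromatase, which makes estrogens, read 0.99 (a) and 1.95 (b) in low gain and 1.09 (a) and 2.03 (b) in high gain. Arrays with the letter a were lower than those with the letter b by 0.96 in low gain and by 0.93 in high gain, while the groups differed by -0.09 ± 0.48. With the letter as a replicate block the SE of *CYP19A1* was 0.11, and the gene did not pass (limma adjusted p = 0.703). The other probe of *CYP19A1* did not show this: it read -4.17 and -4.64 in low gain and -4.82 and -4.31 in high gain. Pigs carry 3 aromatase genes side by side, and the other members, *CYP19A2* and *CYP19A3*, were not well above background on any array.

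**Figure D4:**
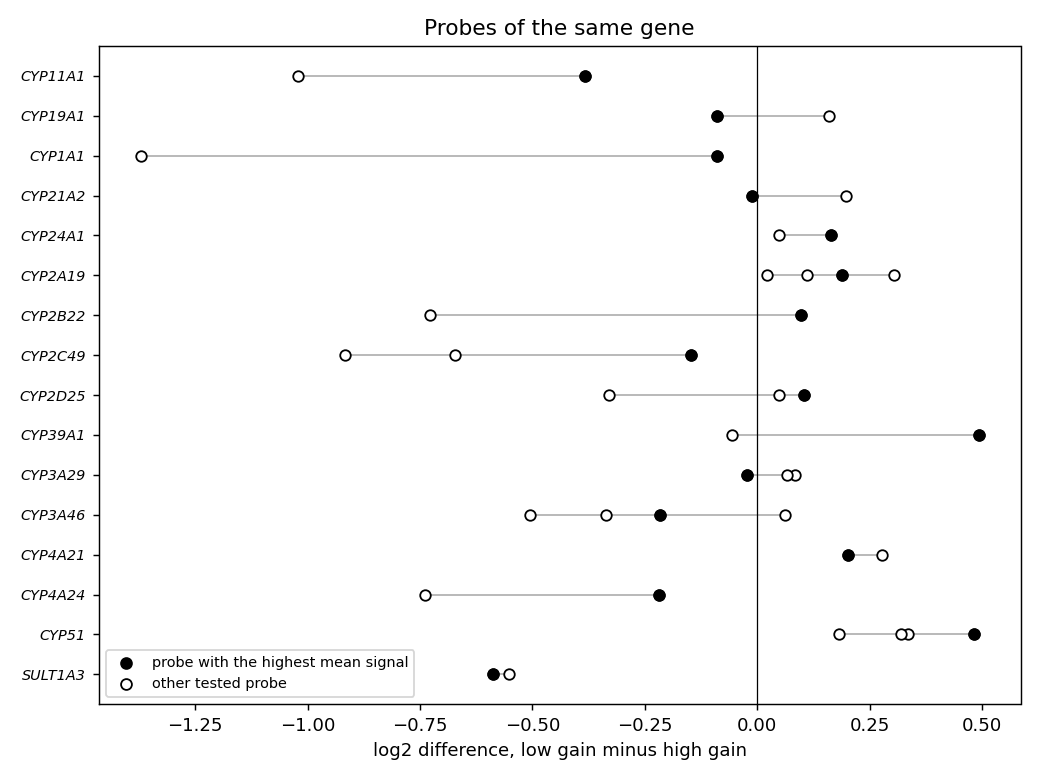
Log2 difference, low gain minus high gain (x axis), of each tested probe for the 16 enzyme genes with more than 1 tested probe; filled points are the probe with the highest mean signal, open points the others, and grey lines their range. All probes lie on the same side of 0 for 9 genes and on both sides for 7. The open points of *CYP1A1* and *CYP2B22* are probes that were not well above background on 2 and on 1 low-gain array, so their distance from the filled points is not a measured range.

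Glutathione transferases couple glutathione to reactive compounds. *GSTO1*, of the omega class, read 4.82 and 4.999 in low gain and 4.81 and 4.88 in high gain, a difference of 0.06 ± 0.12 (95% interval -0.27 to 0.39). *GSTA1*, of the alpha class, read -3.01 and -3.10 in low gain and -3.28 and -3.16 in high gain, a difference of 0.16 ± 0.11 (95% interval -0.14 to 0.47). Neither passed (limma adjusted p = 0.797 for *GSTO1* and 0.472 for *GSTA1*), and each was read by 1 probe.

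Genes that work with these enzymes did not pass either: 0 of 37 tested genes in 6 lists passed in either direction (0.417% of all tested genes did). Of the 37, 9 had an unadjusted limma p under 0.05 (21.6% of all tested genes did). With the prior variance following the signal 3 of the 37 passed, beside 7.88% of all tested genes. Among 13 tested sensors and regulators the median difference was 0.04, and 2 of those 3 genes were in this list. They were *NR1I2*, the gene of the pregnane X receptor, which switches on CYP3A genes (0.42 ± 0.10, limma adjusted p = 0.198), and *RXRG*, a retinoid X receptor gene (0.71 ± 0.12, limma adjusted p = 0.163). *NR1I2* read 2.14 and 2.22 in low gain and 1.79 and 1.73 in high gain, and the probes of *CYP3A29* and *CYP3A46* lay on both sides of 0, as given above. On the lower side of this list were *VDR*, the vitamin D receptor gene, at -0.30, and *KEAP1* at -0.23, and *PPARA* lay at 0.66 ± 0.45.

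Among 12 tested oxidising, reducing and hydrolysing enzymes the median was 0.23, with 10 higher means and 2 lower ones. *AKR1B1*, an aldose reductase gene, differed by -0.53 ± 0.11 and passed with the prior variance following the signal (limma adjusted p = 0.0285, and 0.181 without). *EPHX2*, the soluble epoxide hydrolase gene, differed by -0.78 ± 0.22, and on the higher side *AKR1C1* was at 0.45 ± 0.27 and the carboxylesterase gene *CES1* at 0.39 ± 0.11. The electron donors had a median of -0.05 over 4 genes, with the P450 reductase gene *POR* at -0.23, *CYB5B* at -0.25, *FDX1* at 0.14 and *CYB5A* at 0.24. Other conjugating enzymes had a median of 0.04 over 4 genes, among them *NNMT* at -0.50, *MGST3* at 0.21 and *MGST1* at 0.24. Of cofactor supply, *UGP2* (0.02) and *GGT1* (0.17) were tested, and of transporters the efflux pump gene *ABCG2* (0.41 ± 0.13) and the peptide transporter gene *SLC15A1* (0.06).

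**Figure D5:**
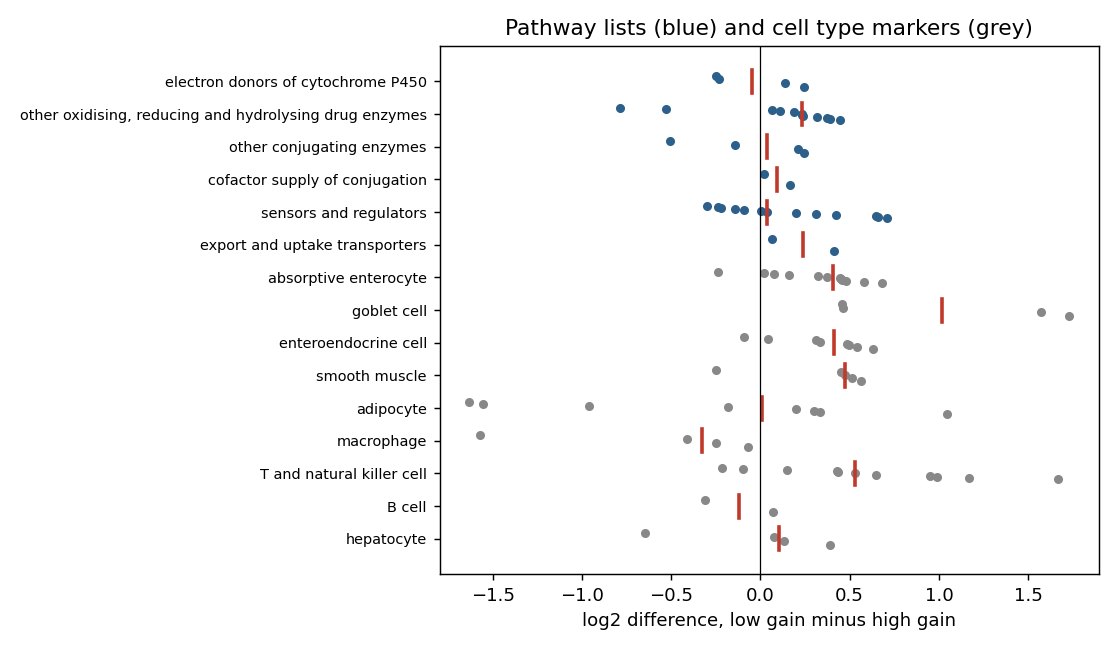
Log2 difference, low gain minus high gain (x axis), of each tested gene in 6 lists that work with the enzymes (blue) and in 9 lists of cell type markers (grey); red lines are list medians. The list medians of the enzyme partners lie between -0.05 and 0.24, and those of goblet cell, T and natural killer cell, smooth muscle, enteroendocrine cell and enterocyte markers lie at 0.41 or above.

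Mean signals of cell type markers also differed between the groups, mostly without passing the test. Of all 2158 tested genes, 1153 had a higher mean in low gain and 1005 a lower one. In a tissue slice, fewer cells of a type and less RNA per cell cannot be told apart. Of 12 tested enterocyte markers, 11 had a higher mean in low gain (median 0.41), with summed signals of 925 and 962 times the 75th percentile in low gain and 805 and 873 times in high gain. *FABP6*, the bile acid binding protein of ileal enterocytes, was above background on all arrays and differed by 0.02 ± 0.12. Smooth muscle markers had 4 of 5 higher means (summed signals 308 and 303 in low gain, 235 and 233 in high gain), and T and natural killer cell markers 9 of 11 (17.6 and 17.8 against 9.15 and 9.17). Enteroendocrine cell markers had 7 of 8 higher means (35.8 and 33.6 against 27.6 and 31.4), and goblet cell markers 4 of 4 (179 and 175 against 86.5 and 93.0). Markers that passed the test were *CLCA1* of goblet cells (1.73 ± 0.10, limma adjusted p = 0.0393) and *GZMK* of T and natural killer cells (1.67 ± 0.10, limma adjusted p = 0.0383). No other marker passed in that fit, and 0.417% of all tested genes did. With the prior variance following the signal more markers passed, beside 7.88% of all tested genes. Higher in low gain were 5 of 12 enterocyte, 4 of 5 smooth muscle and 5 of 11 T and natural killer cell markers. So were 3 of 4 goblet cell, 1 of 8 enteroendocrine cell and 1 of 8 adipocyte markers. Lower were 1 of 8 adipocyte, 1 of 4 macrophage and 1 of 4 hepatocyte markers, and no B cell marker passed. Macrophage markers had lower means for 4 of 4 (19.8 and 20.001 against 22.0 and 21.8), adipocyte markers for 4 of 8 (15.2 and 15.03 against 17.1 and 17.0) and B cell markers for 1 of 2 (12.9 and 12.1 against 13.2 and 15.5). Hepatocyte markers had higher means for 3 of 4, with summed signals of 0.917 to 1.02 in low gain and of 1.10 to 1.15 in high gain. The brightest of them, *TF*, was lower in low gain (-0.64 ± 0.11), and *TTR* and *AMBP* were not well above background on any array. A summed signal follows the brightest probes of its list, so it need not go the way of most means. The part of cell make-up in the differences of *SULT1E1*, *SULT1A3* and *CYP51* was not tested.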

How the data were processed

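The deposited scanner files give the intensity of each spot, background-subtracted by Agilent's Feature Extraction software (version 10.7.3.1 per the file headers). A second deposited table holds log2 values for these arrays. How the authors made it is not stated in the labels or the table. It was used only as an alternative. Its direction and scale followed the scanner values (correlation 0.982 to 0.993 with log2 processed signal, column medians 5.59 to 5.67), and its centring is unknown.

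Each array had 45220 spots, of which 43803 were not controls and 32835 to 33972 of these lay well above background. No non-control spot was saturated. The 4 arrays shared 1 slide and 1 scan. The log2 processed signal minus the array's 75th percentile was averaged over the unflagged spots of a probe, and 48 probes without a value on every array were left out. Probes were named by RefSeq transcript, versions dropped, through NCBI's table of pig genes (Sscrofa11.1), which named 5461 of the 5779 probes that carry one. The files name no build, so no coordinates are given. Probes of related genes may cross-hybridise, and signals of different probes are not comparable.

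The test was limma's moderated linear model (lmFit and eBayes, version 3.58.1, under R 4.3.3), checked on simulated data. The simulated differences were larger than that of any tested enzyme probe. The check therefore does not show how often differences of the reported sizes would pass. Signed values are low gain minus high gain. Members with the 12 largest differences, the brightest member of each class and at least 1 member per role were to be named, and here all are. Of each partner list, genes past the test and those with the 2 largest differences in each direction were named, except 1 that is not reported here. The members and lists were chosen with earlier results of these data known. Deviations of same-letter arrays from their group means correlated at -0.0292 over 31471 probes, so no shared shift by letter was seen across probes. Single probes could still follow the letter, as the brighter probe of *CYP19A1* did. The labels do not say what the letters stand for, so whether they mark pairs is not settled. Alternatives covered normalisation, background, filter, variance prior, block, probe summary and left-out arrays.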

Additional observations from a re-analysis of the deposited data

How the results depend on the processing

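The count of enzyme genes past the test was 0 in every alternative run except 2, in which it was 3 (2 higher and 1 lower in low gain): the prior variance following the mean signal, and normexp with bright local backgrounds replaced. The latter was added after seeing the data, as was the prior variance following the signal without low-gain array a, which leaves 1 low-gain array in the fit. Over all probes, 80 passed (32 higher). This was 163 (70 higher) with the median subtracted, 1250 (751 higher) with the prior variance following the signal, 197 (93 higher) with that and without low-gain array a, 1086 (662 higher) with backgrounds replaced, 12 (3 higher) without a filter, and 0 with normexp on the median signal, with signal on all 4 arrays or with the replicate block. Leaving out 1 array gave 0 to 37 probes, and 0 enzyme genes each time, with fewer samples in the fit. Unadjusted limma p-values under 0.05 numbered 0 of 25 enzyme genes with normexp and 4 with the block. Beside these stood 0 and 4703 of the 33265 tested probes. The causes were not tested. The enzyme median of 0.06 became -0.007 with normexp and ran from 0.036 to 0.20 with 1 array left out. Of 222 values of 14 genes, 211 kept direction and call, 6 passed that had not, and 4 changed sign: *CYP27B1* (0.0299, backgrounds replaced), *CYP4A21* (-0.007, normexp), and without low-gain array b *CYP11A1* and *GSTO1*, which ran from -0.93 to 0.165 and from -0.0295 to 0.15 with 1 array left out. *CYP24A1* was 0 with quantile normalisation, which gives it 1 value on all arrays because its probe ranks 2 by signal on each. With 1 array left out *CYP2E1* ran from 0.04 to 0.76, *CYP27B1* from -0.70 to -0.079, *CYP4A21* from 0.036 to 0.37, *CYP4A24* from -0.34 to -0.095 and *CYP17A1* from 0.24 to 0.61. Over all alternatives *SULT1E1* ran from 0.64 to 0.91, *SULT1A3* from -0.67 to -0.55 and *CYP51* from 0.33 to 0.57. Their limma adjusted p-values ran from 0.0114 to 1.0, 0.0144 to 1.0 and 0.0354 to 1.0. Normexp on the mean signal was planned and not run, since the columns read hold the median signal. Low signal limits *CYP27B1*, *CYP2E1* and *CYP8B1*, each not well above background on at least 1 array.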
